A study of Homo sapiens with 64 samples.

Results

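The 9 Hedgehog pathway core genes PTCH1, GLI1, GLI2, GLI3, SMO, SUFU, SHH, IHH and HHIP were followed through 64 RNAseq samples of human colorectal cancer cell lines. They were chosen by symbol, each symbol matched 1 Ensembl identifier, and all 9 were present among the 54127 genes listed for every sample. In the 48 sorted samples, spheroids of HT55, SW948, RKO, SW48, DLD1 or HCT15 had been stained with CFSE, which each division dilutes, grown for 6 days without adherence in medium with bFGF and EGF, and sorted into label-retaining cells (LRCs) and non-LRCs (BULK in the labels), with 4 replicates of each population per line. The other 16 samples were controls labelled DLD1, 4 each of CFSE-labeled and unlabeled cells on day 1 and on day 5, the second time being day 6 in the series text. The controls were not split by label retention, and the labels call the unlabeled ones DMSO. All 6 are established lines, and the replicates were described as biological quadruplicates.

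Hedgehog ligands such as SHH and IHH are secreted proteins that bind the membrane receptor PTCH1. Without ligand, PTCH1 holds the transducer SMO inactive, and SUFU restrains the GLI transcription factors. Once ligand binds, SMO is released and the GLI factors enter the nucleus, with GLI2 acting mainly as an activator, GLI3 largely as a repressor and GLI1 as an activator that is itself a target. PTCH1 and HHIP, a decoy that binds ligand, are also induced by the pathway and restrain it. In the intestine, IHH is made by the differentiated epithelium and SHH near the crypt base, and much of the response is in the stroma beneath.

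The promoter sequence of PTCH1 is shown because PTCH1 is a known GLI target and had the most counts of the 9 genes. The 250 bases before a start site were searched on both strands for the GLI site GACCACCCA (TGGGTGGTC on the other strand) and for its core CCACCC, which lies within it. RefSeq promoter windows of build GRCh38.p14 were held for 7 of the 9 genes, 12 windows in all. The sequences below run 5′ to 3′ on the strand of the gene, and each had 1 exact match in GRCh37, at chr9:98271549-98271798 (minus strand) for the 1st of 5 PTCH1 windows and chr4:145567058-145567307 (plus strand) for HHIP. Capitals mark the GLI site in PTCH1 and the core in HHIP.
PTCH1: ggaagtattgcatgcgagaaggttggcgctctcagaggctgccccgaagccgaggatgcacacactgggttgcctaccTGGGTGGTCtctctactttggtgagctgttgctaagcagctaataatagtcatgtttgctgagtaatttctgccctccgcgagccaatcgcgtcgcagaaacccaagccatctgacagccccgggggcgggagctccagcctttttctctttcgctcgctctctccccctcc
HHIP: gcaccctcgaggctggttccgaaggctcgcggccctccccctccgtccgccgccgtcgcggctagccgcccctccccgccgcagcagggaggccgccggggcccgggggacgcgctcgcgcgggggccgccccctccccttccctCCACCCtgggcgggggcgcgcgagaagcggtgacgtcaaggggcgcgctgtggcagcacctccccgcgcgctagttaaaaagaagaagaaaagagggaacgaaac
The GLI site ended 164 bases before this PTCH1 start and was found in 1 of the 12 windows of these genes. It occurred in 0.199% of all 35116 promoter windows of the same length. The core was found in 4 of the 12 windows (2 of PTCH1, 1 of GLI2 and 1 of HHIP), and in 31.3% of all windows. A match describes the letters alone.

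Between 12237225 and 20913455 reads were counted on genes per sample, and levels are given as CPM, the count of a gene scaled to a common library size after TMM correction, which scales each library by the bulk of its genes. All 10 colon epithelial markers had reads, but their summed level differed between lines, from 219 to 334 CPM in the 8 RKO samples to 12925 to 18133 CPM in the 8 HT55 samples, and CDH1, the epithelial cadherin, was at 0.930 CPM in RKO non-LRCs. Endothelial markers summed to at most 3.59 CPM and fibroblast and smooth muscle markers to at most 40.9 CPM in any sample. The 6 immune markers summed to 1.94 to 1616 CPM. CD68, a lysosomal protein that marks macrophages, was at 1088 CPM in RKO non-LRCs. CD14, another of the 6, was above CD68 in HCT15 non-LRCs (7.31 against 5.93 CPM). It was also above CD68 in the unlabeled controls, at 6.58 against 3.93 CPM on day 1 and 5.69 against 3.06 CPM on day 5. PTPRC, which marks all leukocytes, was at 15.6 CPM in SW48 non-LRCs. CD3E, which marks T cells, was at 0 in every sample.

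2 features of the control libraries bear on every result that uses them. The library labelled unlabeled day 1 replicate 4 had a Pearson r of 0.993 with unlabeled day 5 replicates 3 and 4. This r, of log2 CPM across 16899 genes, was 0.972 to 0.979 with the 3 other libraries of its own group. The fold changes of the main control fit that follow are therefore given with and without that library. Group means, ranges and marker sums include it. All 16 control libraries labelled DLD1 also had their highest r with a sorted HCT15 library and none with a sorted DLD1 library, whereas all 48 sorted libraries were nearest to another of their own line. The r between control groups and sorted groups was 0.964 to 0.994 for HCT15 and 0.929 to 0.957 for DLD1. DLD1 and HCT15 are known to come from the same patient. The control samples are therefore called the libraries labelled DLD1, and are set beside both lines.

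**Figure D1:**
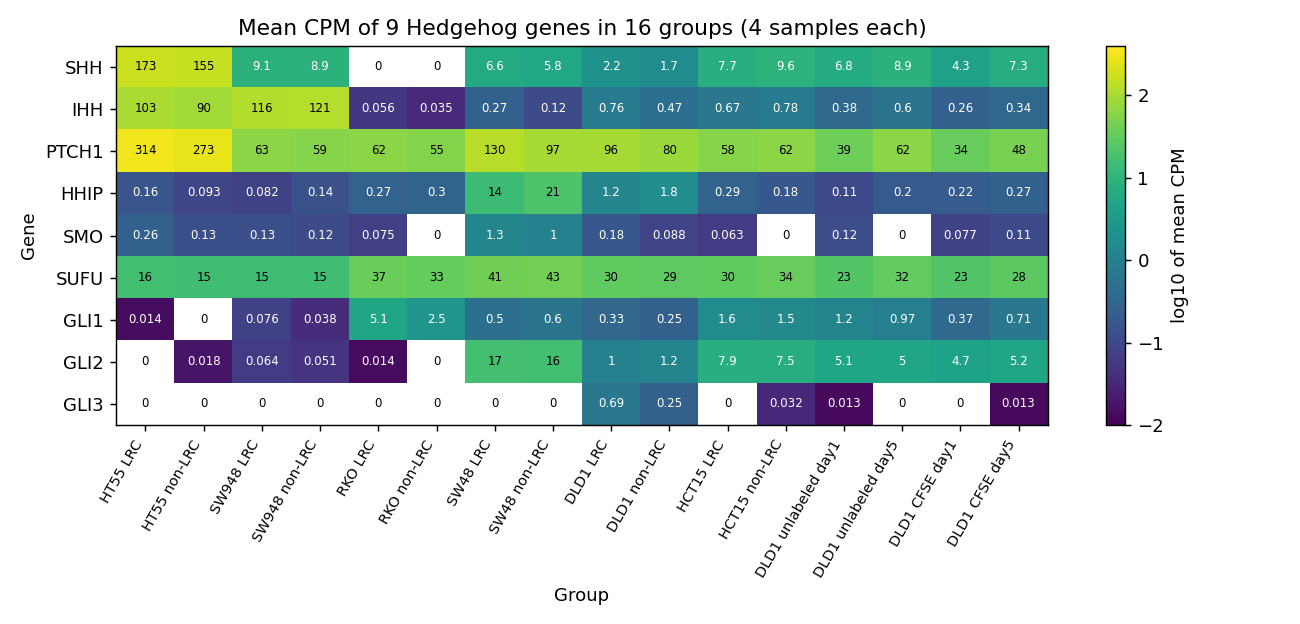
Mean CPM of the 9 genes (rows) in the 16 groups of 4 samples (columns), with color on a log10 scale, the value printed in each cell and groups at 0 left white. Levels compare along a row, not between genes of different length. SHH was at 155 to 173 CPM in HT55 and 0 in RKO, and GLI3 was above 0.1 CPM only in sorted DLD1.

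The 9 genes ranged over 3 orders of total count. PTCH1 had 89598 counts over the 64 samples, SUFU 26977, IHH 25698, SHH 23211, GLI2 4368, HHIP 2302, GLI1 971, SMO 211 and GLI3 58. PTCH1 and SUFU had reads in all 64 samples, and GLI3 in 12. In non-LRCs of the 6 lines, the 7 genes high enough to be tested all differed between lines (edgeR's quasi-likelihood test, adjusted p from 2.43e-24 for IHH to 9.92e-11 for GLI1), as did 98.3% of all genes tested. SMO and GLI3 were too low for that test. GLI1 overlaps ARHGAP9, GLI3 overlaps the pseudogene HMGN2P30 and HHIP overlaps HHIP-AS1, each on the opposite strand, and the strand setting of the counting is not given in the sources used here, so reads of these pairs may not be told apart.

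The ligands differed widely between lines. SHH (chromosome 7, 155592674 to 155605157, minus strand of GRCh37) was at 151, 154, 161 and 154 CPM in HT55 non-LRCs and at 179, 148, 178 and 188 CPM in HT55-LRCs. It was at 0 in all 8 RKO samples, which allows up to 0.0524 CPM in non-LRCs and 0.0507 CPM in LRCs (3 counts over 4 libraries). The other 4 lines lay between, at 9.60 ± 1.86 CPM in HCT15, 8.87 ± 1.59 CPM in SW948, 5.79 ± 3.03 CPM in SW48 and 1.74 ± 0.245 CPM in DLD1 non-LRCs (SD, n = 4). HT55 thus stood apart from the next line with no overlap, the values of HCT15, SW948 and SW48 overlapped from one to the next, and DLD1 lay below SW48 with no overlap. LRCs and non-LRCs overlapped in every line with SHH reads.

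IHH (chromosome 2, 219919146 to 219925643, minus strand) was high in SW948 and HT55. In SW948 it was at 142, 135, 94.7 and 111 CPM in non-LRCs and 145, 122, 97.3 and 98.5 CPM in LRCs. In HT55 it was at 71.0, 116, 91.8 and 82.3 CPM in non-LRCs and 97.8, 109, 93.1 and 110 CPM in LRCs. These values overlapped between the 2 lines and between the populations of each. Next came HCT15 non-LRCs at 0.778 ± 0.171 CPM (SD, n = 4), with no overlap, and RKO was lowest at 0.0352 CPM. Per kilobase of annotated exon, which allows genes to be compared, the levels in HT55 non-LRCs were 36.6 CPM per kb for IHH, 29.6 for SHH and 15.8 for PTCH1. In SW948 non-LRCs they were 48.8, 1.69 and 3.41 CPM per kb.

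PTCH1, the receptor, was highest in HT55. Its levels in HT55 non-LRCs were 279, 279, 263 and 273 CPM, and SW48 followed at 72.3, 85.4, 118 and 112 CPM. DLD1 non-LRCs were at 80.3 ± 9.94 CPM, HCT15 at 62.1 ± 4.95, SW948 at 58.9 ± 3.95 and RKO at 54.8 ± 7.94 CPM (SD, n = 4). HT55 lay above SW48 and DLD1 above HCT15 without overlap, and the other neighbours overlapped. HHIP, the ligand decoy, was instead highest in SW48. It was at 7.62, 47.0, 12.7 and 16.3 CPM in SW48 non-LRCs and 7.96, 26.6, 11.3 and 11.4 CPM in SW48-LRCs, so that replicate 2 was the highest of both populations. The next line, DLD1 non-LRCs at 1.79 ± 0.565 CPM (SD, n = 4), did not overlap with it, and the other 4 lines were at 0.0926 to 0.301 CPM.

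SMO, the transducer, was near the detection limit in every line but SW48. There its counts were 16, 5, 28 and 12 in non-LRCs and 21, 17, 15 and 15 in LRCs, or 1.03 ± 0.571 and 1.28 ± 0.170 CPM (SD, n = 4). In the sorted samples of the other 5 lines none had more than 5 counts, and non-LRCs of RKO and HCT15 had 0, which allows up to 0.0524 and 0.0461 CPM. SUFU, the cytoplasmic restraint on GLI factors, was the most even of the 9 by its means across lines, from 15.2 ± 1.42 CPM in HT55 to 43.4 ± 3.06 CPM in SW48 non-LRCs (SD, n = 4). SW48 lay above HCT15 and DLD1 above SW948 without overlap.

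The 3 GLI factors had separate patterns. GLI1 had its highest mean in RKO, at 2.35, 3.12, 2.05 and 2.56 CPM in non-LRCs, where SHH had no reads and IHH averaged 0.0352 CPM. These values overlapped with HCT15 non-LRCs, at 1.27, 1.16, 1.31 and 2.18 CPM. GLI1 was at 0 in all 4 HT55 non-LRC samples, allowing up to 0.0556 CPM, and at 1 count in 4 HT55-LRC samples, the line with the highest SHH and PTCH1. GLI2 was at 16.3 ± 0.985 CPM in SW48, 7.47 ± 0.814 in HCT15 and 1.17 ± 0.451 in DLD1 non-LRCs (SD, n = 4), each step without overlap, and 0.0508 CPM or less in SW948, HT55 and RKO. GLI3 had 54 counts in the 8 sorted DLD1 samples, 2 in sorted HCT15 and none in the other 4 sorted lines. RKO, with the highest mean of GLI1, thus had 1 GLI2 count in 8 samples.

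The order of lines rested on 41 pairs of neighbours with reads. The share of such pairs without overlap over all genes is not given here, and 98.3% of all genes tested differed between lines. Of the 41 pairs, 16 did not overlap. Each of those had the smallest p that the exact permutation test of 4 against 4 allows (two-sided p = 0.0286), which became 0.0732 after Benjamini-Hochberg adjustment over the 41.

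Over the 12 sorted groups (6 lines by 2 populations), the genes whose mean log2 CPM followed each member most closely were named from the 16602 other genes tested. PTCH1 was followed by CPXM2, LINC02875 and CXXC4 (Pearson r of 0.984 to 0.975), SHH by ENSG00000227486, FOXO4 and SDHAP2 (0.984 to 0.975) and IHH by BMS1P10, SLC22A3 and CXorf38 (0.997 to 0.994). GLI1 was followed by MAP3K12, WDR19 and TMEM121B (0.987 to 0.980), GLI2 by ALDH1L1, OSBPL6 and ADGRA2 (0.986 to 0.975) and HHIP by TBL1X, ELF5 and ZC3H11B (0.986 to 0.974). For SMO they were S100A1, LINC02617 and ZNF316 (0.989 to 0.967), and for SUFU LRRC4B, TBX1 and DGCR6L (0.994 to 0.990). No member was among the 3 genes closest to another. These r rest on 12 means from 6 lines, and both populations of a line share its background.

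LRCs were then compared with non-LRCs to ask whether pathway genes differed in cells that had divided little. PTCH1 rose by 0.18 on the log2 scale over the 6 lines and GLI1 by 0.47, while 6 other tested members did not pass and GLI3 was too low to test. These 2 of 8 compare with 22.9% of the 16603 genes tested that passed an adjusted p under 0.05, and with 12.2% that passed as higher in LRCs, so the share of members called was close to that of all genes. The median log2 fold change of the 8 was 0.07, against 0.01 for all genes tested. In such bulk samples, fewer cells expressing a gene and less RNA per cell cannot be told apart.

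PTCH1 was higher in LRCs in 5 of 6 lines by mean CPM. In SW48 its levels were 136, 127, 134 and 124 CPM in LRCs against 72.3, 85.4, 118 and 112 CPM in non-LRCs. All 4 SW48-LRC samples lay above all 4 non-LRC samples. PTCH1 was the 1 member of 8 with reads to separate in SW48 (exact permutation p = 0.0286, the smallest possible, 0.7 after adjustment over 49 tests), and 4.99% of all genes with reads separated in this line. In DLD1 the levels were 92.1, 90.4, 101 and 99.7 CPM in LRCs and 72.3, 71.9, 84.8 and 92.2 CPM in non-LRCs, with an overlap of 1 non-LRC sample. In HT55 they were 361, 289, 266 and 338 CPM against 279, 279, 263 and 273 CPM, overlapping through LRC replicate 3.

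Fitted over the 6 lines, the log2 fold change of PTCH1 was 0.18 (standard error 0.05, adjusted p = 0.00809, edgeR). It was 0.13 (adjusted p = 0.0576) without SW48 and 0.17 (adjusted p = 0.0664) without replicate 3 of every line. Each line alone gave 0.42 in SW48, 0.26 in DLD1, 0.20 in HT55, 0.15 in RKO, 0.12 in SW948 and -0.08 in HCT15, none past the threshold. The replicate numbers paired the libraries of HT55, SW48, DLD1 and HCT15, and with the number as a block PTCH1 passed in DLD1 (0.27, standard error 0.05, adjusted p = 8.34e-05) and SW48 (0.45, standard error 0.11, adjusted p = 0.0348). Whether its LRC effect differed between lines gave an adjusted p of 0.199, and 0.0473 with the block. The shares of all genes that passed with the block are not given here.

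**Figure D2:**
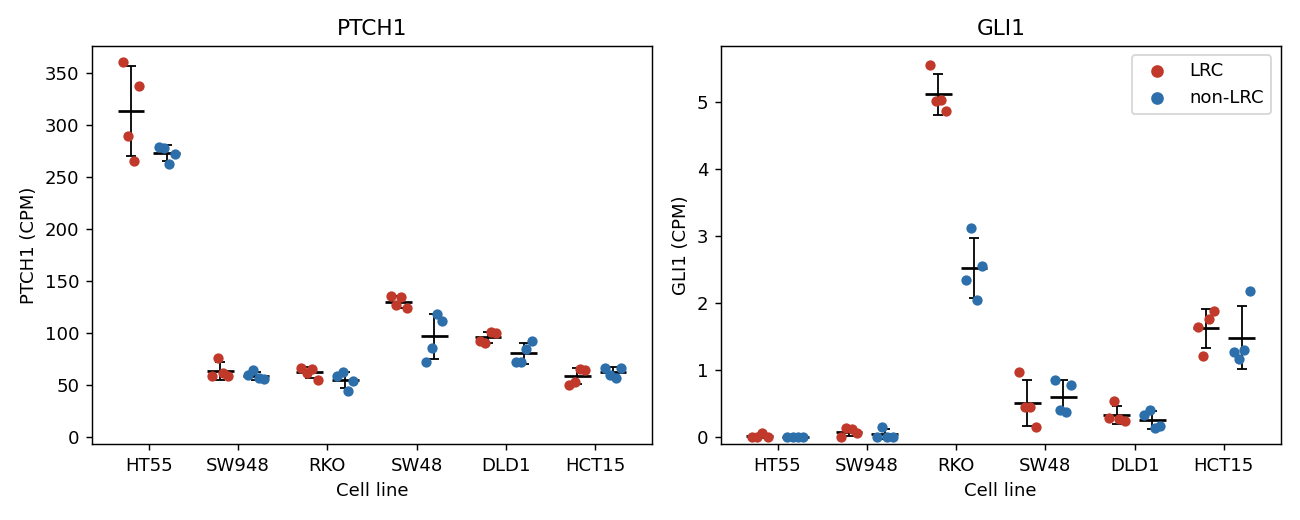
CPM of PTCH1 (left) and GLI1 (right) in LRCs and non-LRCs of each line. Points are samples, bars the mean of 4 with its SD. PTCH1 separates in SW48 and GLI1 in RKO, where LRCs lie at 4.87 to 5.57 CPM and non-LRCs at 2.05 to 3.12 CPM.

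GLI1 rose in RKO. Its levels there were 5.57, 5.02, 5.03 and 4.87 CPM in LRCs against 2.35, 3.12, 2.05 and 2.56 CPM in non-LRCs, from 301 and 146 counts. The populations did not overlap, as for 20.9% of all genes with reads in RKO and for none of the 6 other members with reads. In RKO alone the log2 fold change was 0.98 (standard error 0.17, adjusted p = 0.000356, edgeR), the 1 call among 3 members tested, while 41.5% of all genes passed in this line and 20.4% passed as higher. ARHGAP9, which overlaps GLI1 on the opposite strand, had no reads in RKO.

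Outside RKO, GLI1 did not separate. HCT15-LRCs held 1.62 ± 0.290 CPM and their non-LRCs 1.48 ± 0.472 CPM, and in SW48 the 2 populations held 0.501 ± 0.344 and 0.599 ± 0.247 CPM (SD, n = 4). Without RKO, the log2 fold change over the remaining 5 lines was 0.14 (adjusted p = 0.73), against 0.47 (adjusted p = 0.0413) over all 6. The test of whether the GLI1 effect differed between lines did not pass (adjusted p = 0.287, edgeR). Without the block none of the 8 members passed it, while 14.3% of all genes did. At an unadjusted p under 0.05 it gave 0 of the 8 members and 5017 of the 16603 genes tested. The six-line call also did not hold without SW948 (0.45, adjusted p = 0.0537), without DLD1 (0.47, adjusted p = 0.0771), or without replicates 1, 2 or 3 (0.43, 0.52 and 0.34, adjusted p from 0.0663 to 0.331).

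The other members did not pass over the 6 lines. On the log2 scale the ligands SHH and IHH differed by 0.05 (standard error 0.11) and 0.09 (0.11), SUFU by 0.01 (0.04) and GLI2 by 0.04 (0.10), with SUFU below 0 in 5 alternatives. SMO, at 110 counts in LRCs and 80 in non-LRCs, had the largest value, 0.64 (standard error 0.28, adjusted p = 0.0999). By mean CPM the LRCs had more SMO in each of the 6 lines, though outside SW48 from at most 5 counts a sample. HHIP went the other way, at -0.35 (standard error 0.23, adjusted p = 0.295), with 760 counts in SW48-LRCs and 1221 in SW48 non-LRCs. Without SW48 the value was -0.13 (adjusted p = 0.756), and replicate 2 of the SW48 non-LRCs held 696 of those 1221 counts.

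GLI3 could be described in sorted DLD1 only. Its counts were 5, 11, 13 and 10 in LRCs and 5, 6, 2 and 2 in non-LRCs, or 0.689 ± 0.231 and 0.253 ± 0.130 CPM (SD, n = 4). The groups overlapped through LRC replicate 1 (exact permutation p = 0.0571, 0.7 after adjustment). HMGN2P30, its overlapping pseudogene, had 4 and 2 counts in the same groups. By line, no member of 4 tested was called in HT55 (0% of all genes passed) or in SW948 (0%), none of 6 in SW48 (0.796%), in DLD1 (14.6%) or in HCT15 (0.977%). At an unadjusted p under 0.05 edgeR gave 1 of 6 members in SW48 and 1 of 6 in DLD1, PTCH1 in both. At that threshold it gave 1728 of 13196 genes tested in SW48 and 4120 of 13592 in DLD1. DESeq2 called PTCH1 in DLD1, and the share of all genes it called is not given here. No member separated without overlap in HT55, SW948, DLD1 or HCT15, where 2.49%, 3.42%, 12% and 6.39% of genes with reads did.

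**Figure D3:**
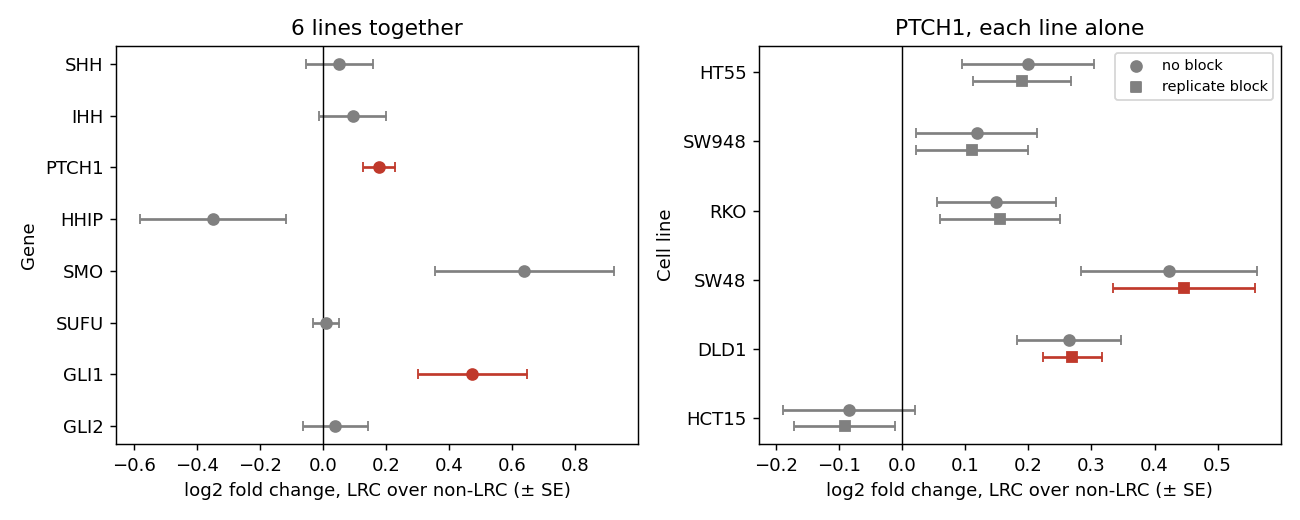
Log2 fold change of LRC over non-LRC with its standard error, for the 8 tested members over 6 lines (left) and for PTCH1 in each line without and with the replicate block (right). Red marks an adjusted p under 0.05. PTCH1 lies at 0.18 and GLI1 at 0.47 on the left, and on the right DLD1 and SW48 are red with the block.

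Markers of other cell states and cell types differed between the same populations, in some lines more than in others. The 8 markers of dividing cells summed to 981 ± 243 CPM in RKO-LRCs against 1472 ± 66.9 in RKO non-LRCs, 900 ± 176 against 1333 ± 63.5 in DLD1, and 653 ± 316 against 928 ± 523 in SW48 (SD, n = 4). In HCT15, where the PTCH1 log2 fold change was -0.08 (0.01 without replicate 1), the sums were 1656 ± 514 and 1407 ± 379. In HT55, with PTCH1 at 0.20, they were 948 ± 136 and 962 ± 40.3, and in SW948, with PTCH1 at 0.12, 1502 ± 129 and 1438 ± 50.8. The fibroblast and smooth muscle list summed to 24.6 to 36.3 CPM in RKO-LRCs and 3.77 to 6.43 CPM in RKO non-LRCs. Of this ACTA2, smooth muscle actin, made 28.6 and 4.90 CPM and COL1A1 0.274 and 0.144 CPM. DCN, COL1A2, COL3A1, LUM and PDGFRB were each at 0.0581 CPM or less in both. In SW48 the list averaged 33.0 CPM in LRCs and 17.0 in non-LRCs, of which ACTA2 made 31.5 and 15.7. The same averages were 23.7 and 19.6 CPM in HCT15, 13.5 and 13.1 in DLD1, 8.87 and 8.91 in HT55, and 14.6 and 14.7 in SW948. Among the immune markers CD68 rose in LRCs by 0.77 over the 6 lines (standard error 0.14, adjusted p = 4.22e-05, edgeR). Its values ran from 0.30 in RKO, where it passed (adjusted p = 0.013), to 1.80 in HCT15. PTPRC was at 14.3 CPM in SW48-LRCs and 15.6 in SW48 non-LRCs, and at 0.0290 CPM or less in both populations of every other line. The part of these differences in the PTCH1 and GLI1 results was not tested.

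The wider pathway was read from 5 lists of further genes, whose counts stand against the 22.9% of all genes called over the 6 lines and the 12.2% called as higher. Of 11 genes for ligand lipidation, release and binding, 9 were tested and 2 rose in LRCs over the 6 lines, HHAT, which attaches palmitate to ligand (0.44, standard error 0.11, adjusted p = 0.00234), and DISP1, which releases it (0.25, standard error 0.08, adjusted p = 0.0238). In RKO alone 3 of 6 tested rose and none fell. HHAT rose there by 0.91 and DISP1 by 0.72. DISP2, which did not pass over the 6 lines (adjusted p = 0.0814), had the largest change of the 3 in RKO (adjusted p = 1.28e-05, edgeR). Over the 6 lines the median of the 9 was 0.25, against 0.01 for all genes. Of 5 further receptors and coreceptors, 4 were tested and none passed, with GAS1, a coreceptor, at -0.41 (adjusted p = 0.0603). In RKO alone 1 of 3 tested passed, CDON, at 0.62 (adjusted p = 0.0146, edgeR). The RKO counts of these lists stand against 41.5% of all genes called in that line and 20.4% called as higher.

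Between SMO and the GLI factors, 16 of 17 relay and cilium genes were tested, and IFT52, a subunit of the intraflagellar transport complex, fell by 0.15 (adjusted p = 0.0133), with none higher and a median of -0.06. Of 20 kinases and degradation factors that act on GLI proteins, 6 rose and none fell, with a median of 0.05. They included FBXW11, the substrate receptor of a ubiquitin ligase (0.14, adjusted p = 0.00405), and the kinases GSK3B (0.14, adjusted p = 0.0131), DYRK1A (0.13, adjusted p = 0.0161) and CSNK1D (0.09, adjusted p = 0.0292), with the ligase ITCH at 0.12 (adjusted p = 0.0284). Of 24 genes often used as pathway targets, 18 were tested, 5 rose (NRP1, HEY1, CFLAR, BCL2 and SNAI1, by 0.17 to 0.88) and none fell, with a median of 0.12. Many of these also answer to other pathways. In RKO alone, 41.5% of all genes passed and 20.4% passed as higher. There 3 of the 16 tested relay and cilium genes rose and 1 fell. Of the 20 kinases and degradation factors, 5 rose and 4 fell there. Of the targets, 6 of 13 tested rose and 1 fell there. In DLD1, where 14.6% passed, 1 of 16 rose and 1 fell, and in the other 4 lines none passed.

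The libraries labelled DLD1 were used to ask whether time in culture or the dye itself moved these genes. With all libraries, PTCH1 and SUFU rose from day 1 to day 5 in unlabeled cells and SHH in CFSE-labeled cells, and on day 1 GLI1 and SHH were lower in CFSE-labeled than in unlabeled cells. No member passed for the dye on day 5 or for an interaction of time and dye. IHH and GLI2 gave no call in any of these 5 contrasts, and HHIP, SMO and GLI3 were too low to test. The contrasts share groups and are not independent. The share of reads on no gene was 8.96% to 14.8% in the 8 libraries of day 1 and 5.19% to 8.35% in the 8 of day 5, and on day 1 it was 12.1% to 14.8% with CFSE and 8.96% to 13.6% without. The 8.96% was that of unlabeled day 1 replicate 4. The part of this share in the time and dye results was not tested.

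PTCH1 was at 30.8, 30.5, 33.8 and 60.1 CPM in unlabeled cells on day 1 and at 61.4, 59.6, 66.3 and 60.4 CPM on day 5. The 1 high value on day 1 was that of replicate 4, which overlapped with day 5. The log2 fold change was 0.67 (standard error 0.19, adjusted p = 0.0219, edgeR) with this library and 0.89 (standard error 0.14, adjusted p = 0.000147) without it. SUFU behaved likewise, at 21.4, 21.5, 21.5 and 28.8 CPM on day 1 and 30.1, 32.1, 33.4 and 32.0 CPM on day 5. Its change was 0.45 (adjusted p = 0.0245) with replicate 4 of day 1 and 0.50 (adjusted p = 0.00384) without it. These 2 calls of 6 members tested compare with 25.5% of all genes, and 12.4% as higher. Neither passed when replicate 1, 2 or 3 was left out of all groups, when values were 0.54 to 0.56 for PTCH1 and 0.35 to 0.41 for SUFU. Scaling by total counts shifted the median of all genes by -0.13 in this contrast and by -0.11 for time in CFSE-labeled cells, and PTCH1 was then at 0.55 (adjusted p = 0.0576) and SUFU at 0.33 (adjusted p = 0.0963).

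In CFSE-labeled cells SHH was at 4.28, 4.63, 3.90 and 4.38 CPM on day 1 and 7.20, 7.97, 7.47 and 6.68 CPM on day 5, without overlap. The share of all genes without overlap between these groups is not given here. Its log2 fold change was 0.73 (standard error 0.17, adjusted p = 0.00381), or 0.71 (adjusted p = 0.00325) without unlabeled day 1 replicate 4, the 1 call of 6 members where 39.3% of all genes passed and 20.2% as higher. PTCH1 was at 33.4, 36.2, 33.9 and 31.6 CPM on day 1 and 42.2, 37.3, 57.8 and 55.3 CPM on day 5. All day 5 values lay above those of day 1, and the change was 0.47 (adjusted p = 0.0604). It became 0.45 (adjusted p = 0.00839, edgeR) without the library labelled unlabeled day 1 replicate 4, which shares the estimate of spread. GLI1 then went from 0.87 (adjusted p = 0.0573) to 0.84 (adjusted p = 0.048). Leaving out that library was chosen after seeing the data, and the share of all genes that then passed is not given here.

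On day 1, GLI1 counts were 4, 8, 5 and 8 in CFSE-labeled and 33, 20, 16 and 15 in unlabeled libraries, or 0.371 ± 0.110 and 1.18 ± 0.428 CPM (SD, n = 4). The dye groups did not overlap, and the share of all genes without overlap between them is not given here. GLI1 was lower with CFSE, at -1.63 on the log2 scale (standard error 0.33, adjusted p = 0.00411, edgeR), at -1.82 (adjusted p = 0.00279) without unlabeled replicate 4, but at -1.23 (adjusted p = 0.0614) without replicate 1, which held 33 of the 84 unlabeled counts. ARHGAP9 had 61 counts in the CFSE-labeled and 35 in the unlabeled group on day 1. SHH was at 4.30 ± 0.304 CPM with CFSE and 6.83 ± 0.991 CPM without (SD, n = 4), again without overlap. Its difference was -0.64 (standard error 0.17, adjusted p = 0.0156), -0.63 (adjusted p = 0.0252) without unlabeled replicate 4, and it missed the threshold without replicate 1 or 2 (-0.65 and -0.60, adjusted p of 0.0921 and 0.0913). The 2 calls of 6 compare with 21.8% of all genes, and 12% as lower.

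On day 5 the dye contrast gave -0.46 for GLI1 (adjusted p = 0.383) and -0.29 for SHH (adjusted p = 0.303), and none of the 6 members passed where 5.13% of all genes did. Without unlabeled day 1 replicate 4 these were -0.45 (adjusted p = 0.33) and -0.28 (adjusted p = 0.279). GLI1 stood at 0.707 ± 0.183 CPM with CFSE and 0.968 ± 0.123 CPM without (SD, n = 4). The interaction of time and dye was 1.16 for GLI1 (standard error 0.46, adjusted p = 0.212), or 1.36 (adjusted p = 0.0748) without that library, with 0.999% of all genes passing, so that a difference of the dye effect between days was not shown. The 8 dividing-cell markers summed to 2298 ± 221 CPM in CFSE-labeled and 2714 ± 471 in unlabeled cells on day 1, and to 3118 ± 167 and 1831 ± 234 on day 5 (SD, n = 4), and their part in these results was not tested.

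**Figure D4:**
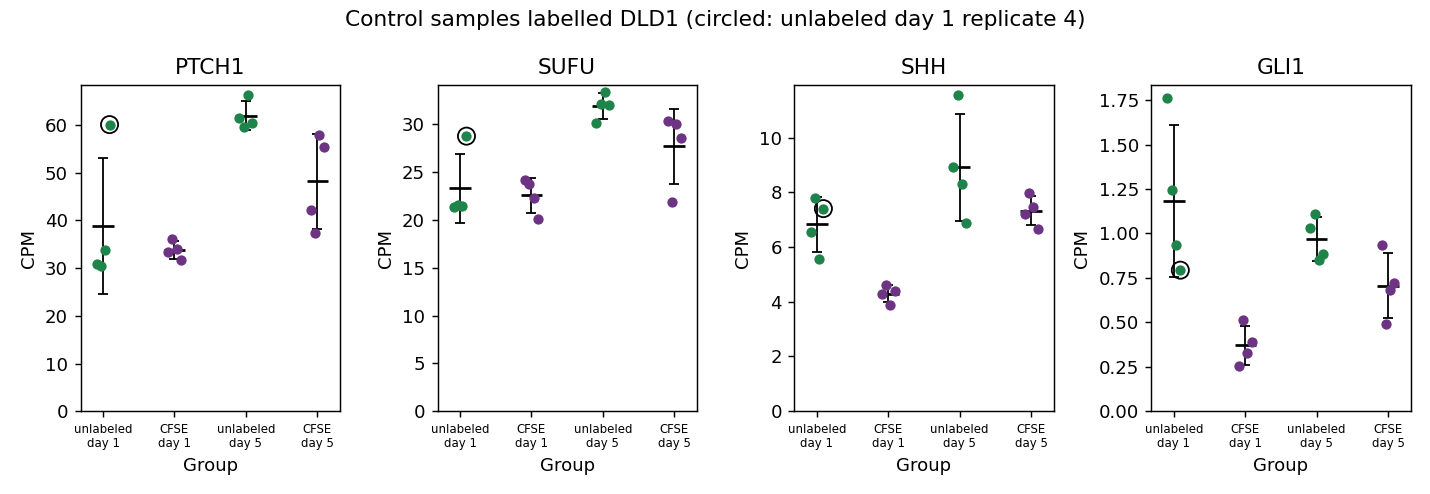
CPM of PTCH1, SUFU, SHH and GLI1 in the 4 control groups labelled DLD1. Points are samples, bars the mean of 4 with its SD, and the circle marks unlabeled day 1 replicate 4, at 60.1 CPM for PTCH1 and 28.8 CPM for SUFU, above the other 3 of its group.

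Several members differed between the control and sorted libraries that carry the DLD1 label. GLI2 had 51 to 123 counts in each of the 16 control libraries, 10 to 22 in each of the 8 sorted DLD1 libraries and 102 to 154 in each sorted HCT15 library. GLI3 had 54 counts in the 8 sorted DLD1 libraries, 2 in the 16 controls and 2 in the 8 sorted HCT15 libraries. HHIP was at 0.635 to 2.49 CPM in sorted DLD1, 0 to 0.576 in the controls and 0.116 to 0.486 in sorted HCT15. For each of these 3 genes the controls did not overlap with sorted DLD1 and did overlap with sorted HCT15. These ranges were described without a test. The share of all genes that separate in the same way is not given here.

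SHH was at 1.38 to 2.85 CPM in sorted DLD1, 3.90 to 11.5 in the controls and 6.25 to 11.3 in sorted HCT15. GLI1 overlapped between neighbours, with medians of 0.278, 0.821 and 1.47 CPM. IHH (medians of 0.621, 0.350 and 0.769 CPM) and SMO (0.137, 0.0563 and 0 CPM) overlapped among all 3. PTCH1 was at 71.9 to 101 CPM in sorted DLD1, 30.5 to 66.3 in the controls and 50.1 to 66.5 in sorted HCT15, and SUFU overlapped among all 3. The 4 CFSE-labeled controls of day 5 share the dye with the sorted libraries. They had 55 to 123 GLI2 counts each, 1 GLI3 count in all and HHIP at 0.0613 to 0.576 CPM. The remaining controls differ from the sorted libraries in dye or day as well. Sorting and library set differ between controls and sorted libraries, and the label between controls and sorted HCT15, and their parts cannot be told apart. The control results above are therefore values of the libraries labelled DLD1, and were not carried over to the sorted DLD1 cells.

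**Figure D5:**
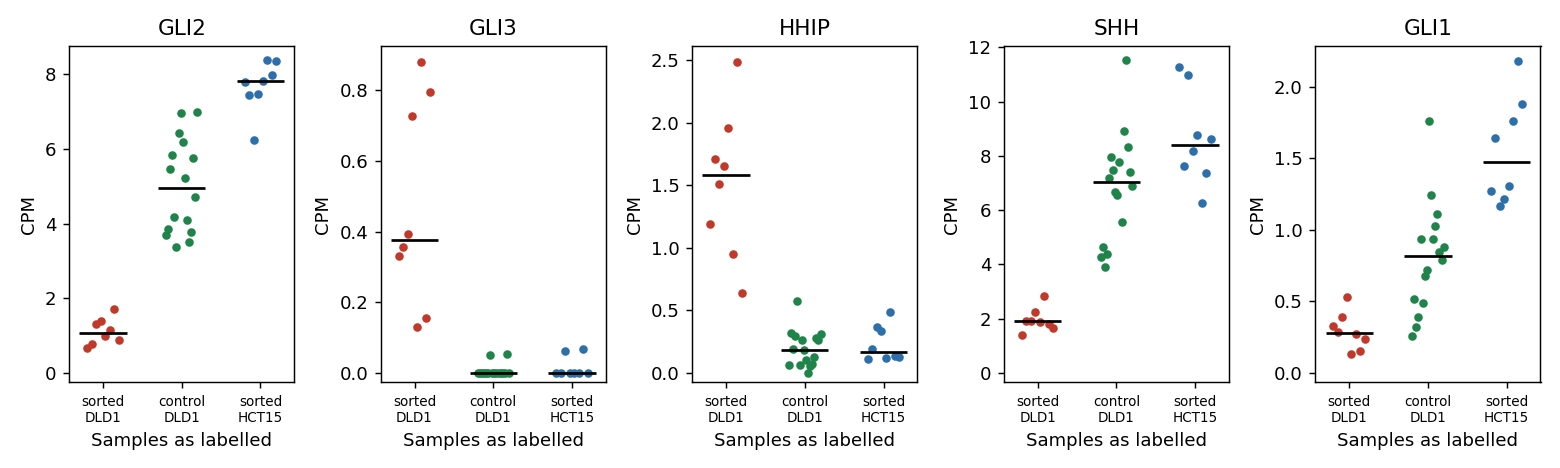
CPM of GLI2, GLI3, HHIP, SHH and GLI1 in 8 sorted DLD1, 16 control and 8 sorted HCT15 libraries, as labelled. Points are samples and lines medians. For GLI2, GLI3, HHIP and SHH the controls do not overlap with sorted DLD1.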

How the data were processed

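Each of the 64 samples had a table of raw read counts by Ensembl gene, as deposited by the authors. Reads on no gene (5.19% to 14.8% of a library) were left out. Per the labels, TopHat, HTSeq and DESeq were named for processing and hg19 as the build, without versions. Libraries were TruSeq, read as 50-bp single-end reads; the strand setting and annotation are not given in the sources used here. Groups came from the labels. The members and gene lists were chosen with earlier results of these data known.

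Genes that reached 10 counts in 4 or more samples of a fit were tested with edgeR 4.0.16 (R 4.3.3, TMM, quasi-likelihood, two-sided), with Benjamini-Hochberg adjustment over all genes and a threshold of 0.05. Cell line was a covariate across lines, single lines were fitted alone, and the 16 controls shared 1 fit. DESeq2 1.42.0, other scalings and filters, left-out samples and lines and a replicate block were alternatives. Same-numbered libraries deviated together (every r over 0.1) in HT55, SW48, DLD1 and HCT15, with mean r of 0.23, 0.251, 0.214 and 0.34, but not in SW948 (0.0486) or RKO (-0.0282). Among controls, 1 of 6 pairs of groups met this.

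CPM used TMM library sizes; exact permutation tests used SciPy 1.17.1. Gene positions and exon lengths came from GENCODE 44 lifted to GRCh37. Counts were simulated with 200 genes changed by a log2 value of 1. Of these, 98% were recovered across lines, 94.4% of 198 tested in RKO and 70.4% of 199 tested for the dye on day 1. The simulated libraries were independent, took their spread from its trend over genes and had the same change in every line. Recovery of smaller changes, such as the 0.18 of PTCH1 across lines, was not measured. Nor was recovery at the low counts of GLI1 or SMO alone. Named genes were the 9 members, up to 5 called genes per list by smallest p, and the 3 genes closest to each member. Intervals from 3 counts cover counting error only. Protein sequences were not used here, and 1 listed gene is not reported here.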

Additional observations from a re-analysis of the deposited data

Results flagged for a closer look

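Of 76 member and group combinations with a mean of at least 10 counts, 5 held a sample whose gap to the nearest of the other 3, divided by the range, exceeded Dixon's 95% critical value, where chance alone flags about 1 in 20 groups. The library labelled unlabeled day 1 replicate 4 was flagged for PTCH1 (60.07 CPM, the others 30.5 to 33.8) and SUFU (28.77 CPM, the others 21.4 to 21.5). PTCH1 was high in SW948-LRC replicate 2 (76.1 CPM, the others 58.1 to 61.1). In HCT15 non-LRCs, GLI1 was high in replicate 4 (2.184 CPM, the others 1.16 to 1.31) and GLI2 low in replicate 2 (6.253 CPM, the others 7.81 to 7.98).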

How the results depend on the processing

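Across the alternatives, 130 counts of called members were the same or within 1.5 times the reported count and 28 were not, and for fold changes of single members 277 values kept their direction and side of the threshold, 21 lost and 11 gained a call and 6 changed sign. Over the 6 lines, 2 members were called, 1 without a filter on low counts, 1 with at least 10 counts in every sample, 1 without each of SW948, RKO, SW48 and DLD1, and 0 to 2 without 1 replicate. Members that differed between lines numbered 7, or 2 with at least 10 counts in every sample. In SW48 the count was 0, and 1 with the replicate block or with all 48 sorted samples in one fit. In DLD1 it was 0, and 1 with DESeq2, total counts without TMM, no filter, at least 10 counts in every sample or the replicate block. The count whose LRC effect differed between lines was 0, and 1 with the block. For time in unlabeled controls it was 2, 0 with total counts, 1 without a filter and 0 to 3 without 1 replicate. For time in CFSE-labeled controls it was 1, 2 without a filter, and 1 to 3 without libraries, the 3 being without unlabeled day 1 replicate 4, an alternative chosen after seeing the data. For the dye on day 1 it was 2, 1 with at least 10 counts in every sample and 0 to 2 without 1 replicate. The block changed no other call. SUFU over the 6 lines changed sign, from 0.01 to -0.00015 with total counts, -0.0016 without HT55, -0.0225 without RKO, -0.01001 without DLD1 and -0.0195 to 0.02245 without 1 replicate, as did PTCH1 in HCT15, from -0.08 to a range of -0.1855 to 0.01434 without 1 replicate. The cause was not tested. GLI1, SMO and GLI3 had 971, 211 and 58 counts over the 64 samples, and GLI3 was below the low-count filter in every reported fit.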
